A study of Mus musculus with 18 samples.

Results

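Endothelial cells line every blood vessel, and the 10 genes described here, Pecam1, Cdh5, Kdr, Flt1, Tek, Tie1, Vwf, Emcn, Cldn5 and Tmem100, are markers of that cell type chosen by name. They are 10 of the 33641 gene symbols in the deposited table, and the level of each is the sum of its transcripts in TPM, the usual unit of transcript abundance relative to the whole library, which corrects for transcript length. The libraries came from obese DBA/2J wild-type male mice, described as about 20 weeks old. The labels do not say at which point, and the protocol gives that age where it speaks of the injections. High-fat diet was fed for 12 weeks before treatment and for the 12 weeks of treatment, in every group, so no lean or untreated mice enter. Prednisone was injected intraperitoneally at 1 mg/kg in 2 regimens, weekly or daily, and the comparison mice received vehicle, which their label gives as daily. Tissue was taken 24 h after the last injection. Each regimen had 3 mice, and each of the 9 mice gave 1 quadriceps muscle library and 1 white adipose library, 18 in all. The labels give 3 libraries for daily prednisone in adipose tissue, and those 3 were used, although the design text counts fewer there. Nothing beyond the labels says how the mice were housed or dosed together, so p-values measure the spread between these samples.

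Prednisone is a glucocorticoid prodrug that the body turns into prednisolone, an agonist of the glucocorticoid receptor. The endothelium decides which nutrients, hormones and white blood cells leave the blood, and it grows and regresses with the tissue it serves. Its identity rests on junction proteins that hold neighbouring cells together and on receptor tyrosine kinases for the growth factors of the VEGF and angiopoietin families. In white fat and in skeletal muscle most of it lies in capillaries, where it hands fatty acids, glucose and insulin to the cells behind it.

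By role, the 10 genes fall into adhesion and junction proteins, growth factor receptors, and other surface or secreted proteins. Pecam1 (chr11:106654217-106750628, GRCm38) encodes CD31, an adhesion molecule at endothelial contacts that platelets and some white blood cells also carry. Cdh5 (chr8:104101625-104144511) encodes VE-cadherin, the adherens junction cadherin of endothelium, and Cldn5 (chr16:18776847-18778262) a claudin that seals endothelial tight junctions. Kdr (chr5:75932827-75978458) encodes VEGFR2, the main signalling receptor for VEGF-A. Flt1 (chr5:147561604-147726011) encodes VEGFR1, which binds VEGF-A, VEGF-B and PlGF and is also made as a soluble form that traps these ligands. Tek (chr4:94739289-94874976) encodes TIE2, the receptor of the angiopoietins, and Tie1 (chr4:118471191-118490061) its partner receptor. Vwf (chr6:125546774-125686679) encodes von Willebrand factor, the clotting protein that endothelium and megakaryocytes store and release. Emcn (chr3:137341067-137432185) encodes endomucin, a sialomucin of capillary and venous endothelium, and Tmem100 (chr11:90030348-90036508) a small membrane protein that endothelium makes downstream of BMP9 and BMP10 acting through the receptor ALK1.

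The stretch where the 2 main Flt1 transcripts part is shown because the table lists them separately, and it decides whether VEGFR1 stays on the membrane. Both read the minus strand of chromosome 5 and share 657 codons, up to base 147639225. Flt1-202, of 6895 bases, then jumps to the next exon at base 147634523 and encodes the membrane receptor of 1333 residues. Flt1-203, of 6292 bases, reads on into the intron at base 147639224 and encodes the soluble form of 688 residues. In the lines from GENCODE M21 transcripts (GRCm38), 30 shared coding bases are in lower case and the 30 that follow in capitals.
Flt1-202: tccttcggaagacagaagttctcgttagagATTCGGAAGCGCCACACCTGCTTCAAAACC
Flt1-203: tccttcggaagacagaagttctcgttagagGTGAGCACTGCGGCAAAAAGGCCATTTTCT

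Promoters are shown for 3 genes that the results set apart, Flt1 and Tek, which rose in adipose tissue under weekly prednisone, and Cldn5, whose groups overlapped there. RefSeq's table (GRCm38.p6) held 6 of the 10 genes, Kdr, Flt1, Tek, Tie1, Emcn and Cldn5, but not Pecam1, Cdh5, Vwf or Tmem100. Each line gives the 250 bases before the start, on the gene's own strand, at chr5:147726012-147726261 (minus) for Flt1, chr4:94739039-94739288 (plus) for Tek and chr16:18776597-18776846 (plus) for Cldn5. Capitals mark AGGAAG, or CTTCCT for the other strand, a form of the binding sequence of the ETS transcription factors that many endothelial promoters use.
Flt1: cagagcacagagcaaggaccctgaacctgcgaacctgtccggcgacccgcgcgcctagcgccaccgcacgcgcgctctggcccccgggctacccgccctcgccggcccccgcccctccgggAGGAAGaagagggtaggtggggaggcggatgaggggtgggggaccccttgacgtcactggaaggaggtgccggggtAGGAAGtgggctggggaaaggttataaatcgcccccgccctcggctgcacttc
Tek: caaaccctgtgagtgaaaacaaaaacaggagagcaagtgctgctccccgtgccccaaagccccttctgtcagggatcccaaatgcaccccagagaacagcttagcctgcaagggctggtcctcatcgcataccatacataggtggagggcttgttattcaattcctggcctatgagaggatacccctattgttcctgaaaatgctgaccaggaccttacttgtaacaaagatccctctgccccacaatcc
Cldn5: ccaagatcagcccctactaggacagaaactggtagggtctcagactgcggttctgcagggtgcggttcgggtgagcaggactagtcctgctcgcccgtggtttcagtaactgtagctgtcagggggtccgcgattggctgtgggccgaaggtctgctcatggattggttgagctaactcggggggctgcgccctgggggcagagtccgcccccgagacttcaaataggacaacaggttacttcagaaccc

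Only the full letters AGGAAG were searched for, on either strand, and shorter ETS sites were not. Flt1 held AGGAAG 129 and 53 bases before its start, and the Tek and Cldn5 windows did not hold these letters. Among the other promoters in hand, Tie1 held it 219 bases before its start and Emcn 174 and 93 bases before. That made 3 of 6 windows, beside 29.5% of all 32851 promoters of the same length. The letters ACANNNTGT, the core of the glucocorticoid response element, which read the same on both strands, occurred in 0 of the 6 and in 5.84% of all promoters. A match is a description of the sequence and not a measured binding site.

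Before the results, some features of the libraries bear on them. Sequencing depth is unknown because TPM sums to the same total in every library. Tissue labels matched their markers: the 10 adipocyte markers summed to 13620 to 16417 TPM in adipose libraries and 263 to 715 TPM in muscle, and the 12 skeletal muscle markers to 125281 to 146085 TPM in muscle libraries. Those 12 muscle markers also summed to 313, 1907 and 1426 TPM in the weekly adipose libraries 1, 2 and 3, to 289, 1253 and 319 TPM in the daily ones and to 415, 276 and 309 TPM in the vehicle ones. Weekly libraries 2 and 3 and daily library 2 thus stood apart, and adipose results are given with and without these 3. In every group of 3, library 3 lay between the other two for 42.3% to 55.8% of genes averaging 10 TPM or more, the lowest share in muscle of vehicle mice and the highest in muscle of daily mice. An even order of 3 libraries would put each in the middle for 33.3% of genes. Whether library 3 is a sample independent of the other two could not be settled from these values, and every n of 3, SE and p-value here takes it as one. With library 3 of every group left out, so with 2 libraries a group, 0 of the 10 genes were called in each treatment comparison, and 1 gene of 14150 in adipose tissue between weekly prednisone and vehicle.

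**Figure D1:**
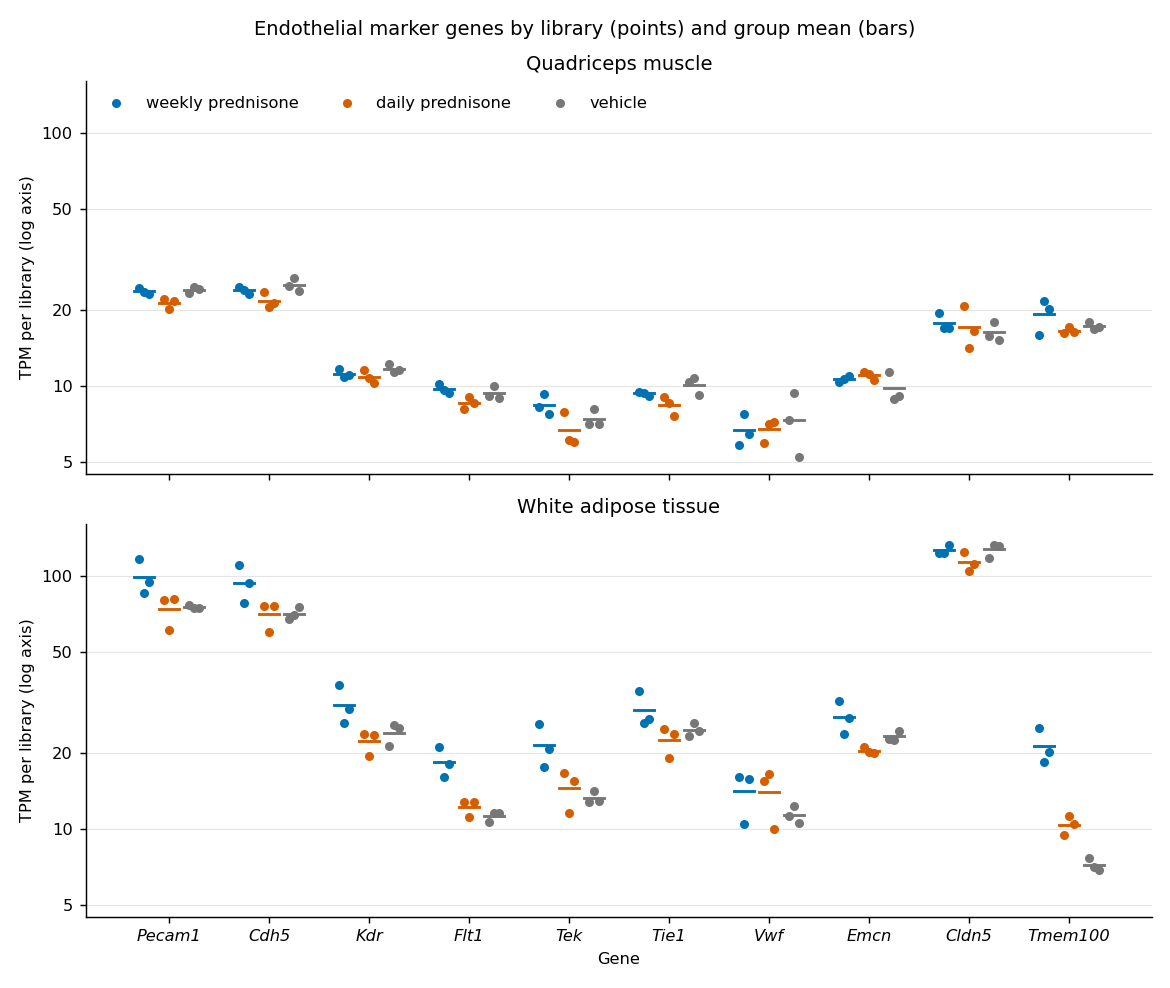
TPM of each gene in each library on a log axis, in quadriceps muscle (top) and white adipose tissue (bottom), with 3 points and a bar at the mean for weekly prednisone, daily prednisone and vehicle. Tmem100 in adipose tissue lay between 18.4 and 25.1 TPM under weekly prednisone, above every daily and vehicle library, while Cldn5 lay between 105 and 133 TPM in all adipose libraries.

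In adipose tissue 3 of the 10 genes, Tmem100, Flt1 and Tek, rose under weekly prednisone, and no gene of the 10 fell. Tmem100 had 25.1, 18.4 and 20.1 TPM in weekly libraries, against 7.69, 7.05 and 6.88 TPM in vehicle libraries. Every weekly library was far above every vehicle library. On the log2(TPM + 1) scale the difference was 1.43 ± 0.12 (SE), a 2.69-fold change, with an adjusted p of 0.00146 by limma with Benjamini-Hochberg adjustment over 14150 genes. Of these genes 5.72% were called higher and 1.72% lower at an adjusted p under 0.05, 7.43% in all, and the members' 3 of 10 are read against that.

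Flt1 had 21.13, 15.998 and 17.98 TPM in weekly libraries, against 10.6, 11.5 and 11.6 TPM in vehicle libraries, with no overlap. Its log2 difference was 0.65 ± 0.11 (SE), 1.57-fold, adjusted p 0.0179 by limma. Tek, the angiopoietin receptor, had 26.0, 17.6 and 20.6 TPM under weekly prednisone and 12.8, 14.1 and 12.9 TPM under vehicle, again with every weekly library above every vehicle library. Its log2 difference was 0.63 ± 0.16 (SE), 1.55-fold, adjusted p 0.0434 by limma. Tmem100 ranked at the 99.6th percentile of all log2 differences, Flt1 at the 95.4th and Tek at the 95.0th.

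The other 7 genes did not pass the test. Cdh5 and Pecam1 came nearest to it. Pecam1 had 116, 85.3 and 94.8 TPM in weekly libraries, against 76.7, 74.8 and 74.7 TPM in vehicle libraries, a log2 difference of 0.37 ± 0.13 (SE) with an adjusted p of 0.0898 by limma. Cdh5 had 110, 77.8 and 93.9 TPM, against 67.3, 69.8 and 75.3 TPM under vehicle, a log2 difference of 0.39 ± 0.13 (SE) with an adjusted p of 0.0849 by limma. For both, every weekly library lay above every vehicle library, and library 1 was far the highest. The same held for Kdr, at 37.1, 26.1 and 29.7 TPM under weekly prednisone and 21.2, 25.8 and 25.1 TPM under vehicle, with a log2 difference of 0.34 ± 0.14 (SE). In all, 6 of the 10 genes had weekly libraries wholly above vehicle libraries, beside 27.6% of all genes tested, and none wholly below, beside 7.88%.

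For the remaining 4 the groups overlapped. Tie1 had 35.0, 26.2 and 27.2 TPM in weekly libraries and 23.3, 26.3 and 24.3 TPM in vehicle libraries. Emcn had 32.0, 23.7 and 27.5 TPM in weekly libraries and 22.7, 22.4 and 24.5 TPM in vehicle libraries. Both differed by 0.24 on the log2 scale, with adjusted p values of 0.231 for Tie1 and 0.153 for Emcn by limma. Vwf had 15.99, 10.47 and 15.78 TPM under weekly prednisone and 11.2, 12.4 and 10.6 TPM under vehicle, and its weekly library 2 was below all 3 vehicle libraries. Cldn5, the tight junction claudin, had 122, 123 and 132 TPM in weekly libraries, against 118, 133 and 131 TPM in vehicle libraries, a log2 difference of -0.01 ± 0.08 (SE) with an adjusted p of 0.937 by limma.

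**Figure D2:**
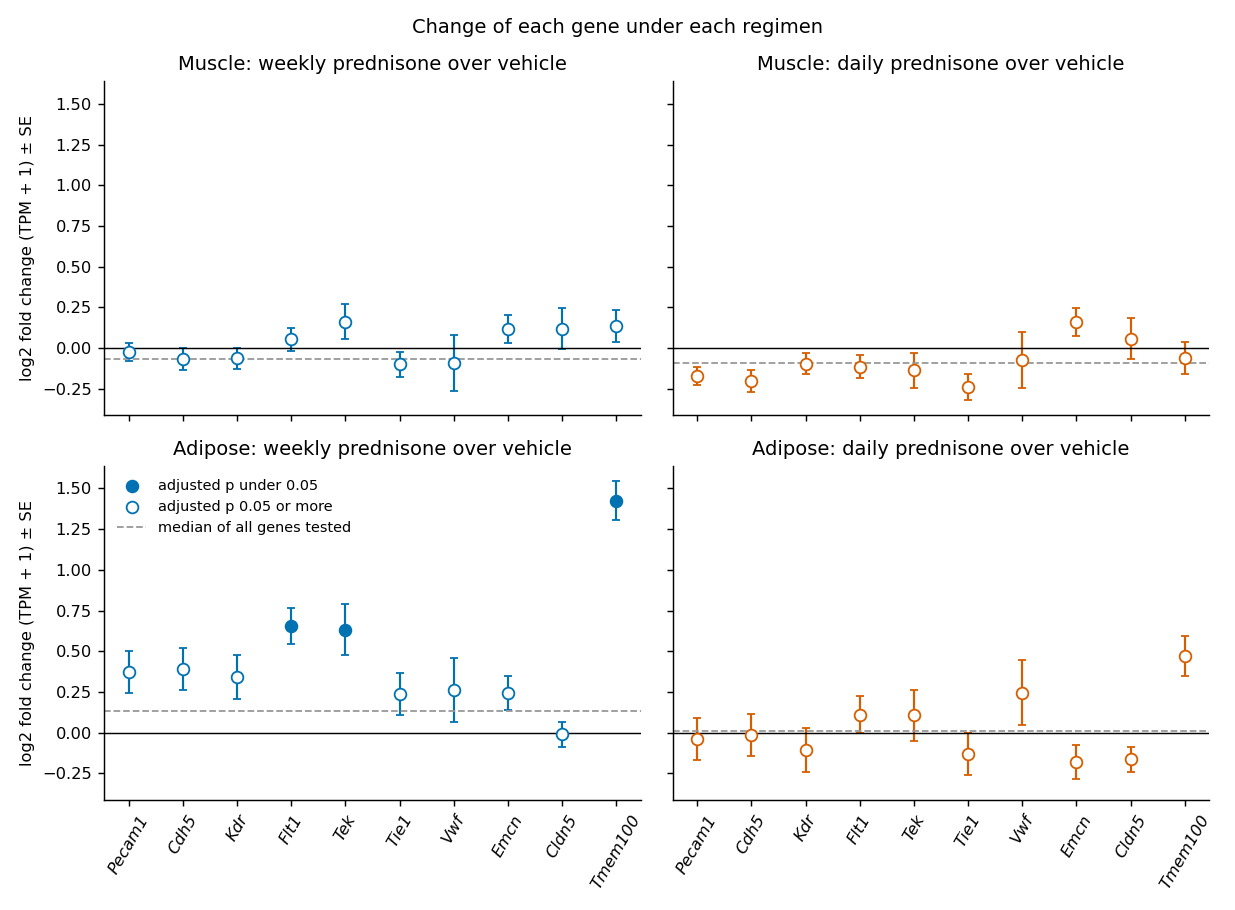
Log2 difference of each gene on the log2(TPM + 1) scale with its standard error, for weekly prednisone over vehicle (left) and daily prednisone over vehicle (right), in muscle (top) and adipose tissue (bottom). Filled points passed an adjusted p of 0.05, the dashed line is the median of all genes tested, and the 3 filled points are Flt1, Tek and Tmem100 in adipose tissue under weekly prednisone.

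The median log2 difference was 0.36 over the 10 genes and 0.13 over all 14150 genes tested. Scaling by TMM, a trimmed mean that sets typical genes level between libraries, moved the median of all genes to 0.01 and gave 474 higher and 645 lower calls, against 809 higher and 243 lower as deposited. The same 3 genes passed under TMM, with log2 differences of 1.30 for Tmem100, 0.53 for Flt1 and 0.50 for Tek, while Cldn5 stood at -0.15 and did not pass. Tek was the weakest call, lost in 10 of 20 other settings, with adjusted p values from 0.00156 to 0.34. It was lost without any 1 of the 3 vehicle libraries, weekly library 1 or 3, or daily library 1 or 3. Flt1 was lost without library 3 of the weekly group (adjusted p 0.0694 by limma), without library 3 of the vehicle group (0.0673) or without both and daily library 3 (0.325), out of 20 settings whose lowest value was 0.000815. Without weekly library 3 or vehicle library 3, 1 of the 10 genes passed, Tmem100, in fits that called 66 and 64 genes, against 1052. Tmem100 was lost in 1 of 20, without the library numbered 3 in every group (adjusted p 0.215 by limma).

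Without the 3 adipose libraries that held muscle transcripts, a setting chosen after seeing the data, 8 of the 10 genes passed, all higher under weekly prednisone, in a fit that called 2138 genes, 12.0% of all genes higher. It left 1 weekly library, library 1, whose spread was taken from the other groups. That library was the highest of the weekly libraries for 9 of the 10 genes, and the share over all genes was not computed. Leaving out muscle transcripts and keeping the highest library thus cannot be told apart in this setting. Log2 differences there were 0.62 for Pecam1 (adjusted p 0.0144 by limma), 0.63 for Cdh5 (0.0162), 0.61 for Kdr (0.0320), 0.49 for Tie1 (0.0347) and 0.45 for Emcn (0.0390), beside Tmem100, Flt1 and Tek. A covariate, the mean log2(TPM + 1) of the muscle markers, was also fitted with all libraries kept. The same 8 genes passed with it, among 4169 genes called, 25.1% of all genes higher. Vwf and Cldn5 passed in neither setting. The covariate went with regimen, as its markers summed to 313 to 1907 TPM in weekly and 276 to 415 TPM in vehicle libraries. Among weekly libraries it set library 1, the highest for most of the 10 genes, apart from the others. It is thus not a separate check of the setting that kept library 1. In a bulk sample, more endothelial cells and more RNA per endothelial cell cannot be told apart.

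Ratios to Cdh5 within the same libraries differed from gene to gene. They also move with Cdh5 itself, whose log2 difference in adipose tissue was 0.39, weekly prednisone over vehicle. The ratio of Tmem100 to Cdh5 was 0.226 ± 0.011 in weekly libraries and 0.102 ± 0.012 in vehicle libraries (SD, n = 3 each). Flt1 to Cdh5 was 0.196 ± 0.008 in weekly libraries, against 0.159 ± 0.006 in vehicle libraries, and Tek to Cdh5 was 0.227 ± 0.008 against 0.188 ± 0.016 (SD, n = 3 each). All 3 ratios were higher in every weekly library than in any vehicle library, beside 4.04% of all other genes set against Cdh5. Cldn5 to Cdh5 was lower, at 1.37 ± 0.24 in weekly libraries and 1.80 ± 0.09 in vehicle libraries. So was Emcn to Cdh5, at 0.296 ± 0.007 in weekly and 0.328 ± 0.008 in vehicle libraries (SD, n = 3 each). Each had no overlap, beside 31.1% of all other genes wholly below. Cldn5 itself stood at -0.01 and Emcn at 0.24 on the log2 scale, so these ratios are not read as a fall of either gene. Pecam1, Kdr, Tie1 and Vwf kept overlapping ratios, with Pecam1 to Cdh5 at 1.05 in weekly and 1.07 in vehicle libraries. In muscle, Flt1 to Cdh5 was 0.408 in weekly and 0.373 in vehicle libraries, Tek to Cdh5 0.353 in weekly and 0.295 in vehicle libraries, and Cldn5 to Cdh5 0.744 in weekly and 0.648 in vehicle libraries. All 3 lay wholly above there, beside 5.98% of all other genes, while the other 6 overlapped and none lay wholly below, beside 7.65%. The ratio of Cldn5 thus stood on opposite sides in the tissues, although its own level overlapped vehicle in both. Under daily prednisone in adipose tissue, Tmem100 to Cdh5 (0.150) and Flt1 to Cdh5 (0.175) also lay wholly above vehicle. The other ratios overlapped there, Tek to Cdh5 among them. In daily muscle Emcn to Cdh5 (0.508) and Cldn5 to Cdh5 (0.786) lay wholly above vehicle, and the others overlapped. Cdh5 itself stood at -0.01 in adipose tissue and -0.20 in muscle on the log2 scale, daily prednisone over vehicle. The share of all genes was not computed for daily ratios, so they have no background to be read against. These ratios do not depend on how libraries are scaled, and they were not tested.

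Daily prednisone called 0 of the 10 genes in adipose tissue by limma, where 0.00707% of genes were called, 1 gene, and 1305 had an unadjusted p under 0.05. Tmem100 had 9.51, 11.2 and 10.4 TPM in daily libraries, against 7.69, 7.05 and 6.88 TPM in vehicle libraries, with no overlap, as for 7.66% of all genes. Its log2 difference was 0.47 ± 0.12 (SE) with an adjusted p of 0.33 by limma. Emcn lay wholly below, at 20.9997, 20.07 and 19.91 TPM in daily libraries and 22.7, 22.4 and 24.5 TPM in vehicle libraries, as did 7.93% of all genes, with a log2 difference of -0.18 and an adjusted p of 0.636 by limma. The other 8 overlapped: log2 differences ran between -0.16 for Cldn5 and 0.25 for Vwf, with Cdh5 at -0.01, Pecam1 at -0.04, and Flt1 and Tek each at 0.11. For Pecam1 and Cdh5 daily library 2 was lowest, at 61.1 and 59.8 TPM, below every vehicle library.

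Weekly set against daily prednisone in adipose tissue, 1 gene passed, Tmem100, whose log2 difference was 0.95 ± 0.12 (SE), 1.94-fold, adjusted p 0.0180 by limma. The background was 0.297% of genes called higher, 0.0141% lower and 0.311% in all, 44 genes. The call was lost in 8 of 20 other settings, among them without weekly library 3 (adjusted p 0.118 by limma), without daily library 1 (0.0879) or 3 (0.0992), without the libraries that held muscle transcripts (0.0546) and in a fit of these 2 groups alone (0.0616), with the range running from 0.000802 to 0.703. With the mean log2(TPM + 1) of the muscle markers as a covariate 8 of the 10 passed, beside 11.6% of all genes called higher. Here too the covariate set weekly library 1 apart from the other weekly libraries, so the same limit holds. As reported, all 10 log2 differences were above 0, beside 74.3% of those of all genes, with Flt1 at 0.54 (adjusted p 0.0954 by limma), Tek at 0.53 (0.208) and Vwf at 0.02 (0.969). Weekly libraries lay wholly above daily libraries for 8 of the 10, all but Vwf and Cldn5, beside 22.5% of all genes, and none lay wholly below, beside 3.05%. The comparison shares its weekly libraries with that against vehicle. Under TMM the median of all genes moved to -0.00, against 0.12, and Vwf turned to -0.11.

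The 2 Flt1 transcripts stood in the same order of groups in adipose tissue. Flt1-202, the membrane receptor, averaged 12.7 ± 2.52 TPM in weekly, 8.67 ± 0.869 TPM in daily and 7.75 ± 0.385 TPM in vehicle adipose libraries (SD, n = 3 each). Flt1-203, the soluble form, averaged 4.74 ± 0.331 TPM in weekly, 3.39 ± 0.020 TPM in daily and 3.27 ± 0.181 TPM in vehicle libraries. The soluble form made up 26.1% of Flt1 in weekly, 27.9% in daily and 29.1% in vehicle adipose libraries. In muscle Flt1-202 averaged 7.32, 6.04 and 6.83 TPM, and Flt1-203 2.33, 2.44 and 2.28 TPM, under weekly prednisone, daily prednisone and vehicle. Transcript values are estimates that split shared reads, and they were not tested.

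**Figure D3:**
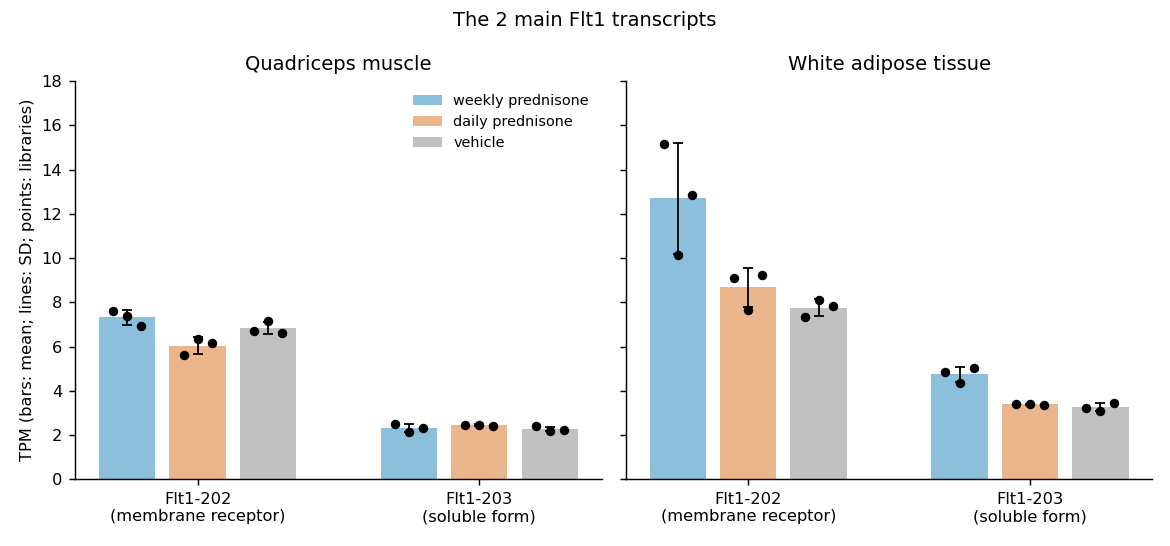
TPM of the 2 main Flt1 transcripts, with bars at the mean, lines for the SD and points for the 3 libraries of each group, in muscle (left) and adipose tissue (right). In adipose tissue weekly libraries lay between 10.1 and 15.2 TPM for the membrane form and between 4.37 and 5.01 TPM for the soluble form, above all daily and vehicle libraries for both.

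Vwf was the least settled of the 10 at transcript level. Its full-length transcript Vwf-203, of 8834 bases, averaged 4.36 ± 1.47 TPM in weekly, 2.86 ± 1.43 TPM in daily and 2.68 ± 0.133 TPM in vehicle adipose libraries (SD, n = 3 each). It made up 30.5% of the gene in weekly, 22.01% in daily and 23.67% in vehicle libraries. The largest share went to Vwf-210, a 2686-base transcript annotated for nonsense-mediated decay, at 47.9% in weekly, 43.9% in daily and 52.3% in vehicle libraries. Vwf-209, a non-coding transcript of 456 bases, ranged from 0 to 8.63 TPM across adipose libraries. Most of the gene's summed level was thus assigned to transcripts other than the full-length one.

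Among the other genes, Cdh5, Cldn5 and Tmem100 were close to single-transcript measurements. Cldn5 and Tmem100 are listed with 1 transcript each, and Cdh5-201 carried 98.2% of Cdh5 in weekly and 99.3% in vehicle adipose libraries. Tek was spread over 3 coding transcripts, of which Tek-203 was the largest, at 12.8 ± 3.84 TPM in weekly, 8.75 ± 1.30 TPM in daily and 7.40 ± 3.06 TPM in vehicle adipose libraries (SD, n = 3 each). Pecam1 was spread over 4 coding transcripts of similar length, with Pecam1-203 at 37.5% of the gene in weekly and 41.2% in vehicle libraries.

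Other endothelial genes were described beside the 10, in lists chosen with earlier results of these data known. Of 24 further endothelial genes, 9 passed higher in adipose tissue under weekly prednisone and 0 lower, beside 5.72% of all genes higher and 1.72% lower, with a median log2 difference of 0.45. Cd34, a sialomucin of endothelium that fat progenitors also carry, rose to 119 ± 9.03 TPM in weekly libraries, against 76.8 ± 4.09 TPM in vehicle libraries (SD, n = 3 each), adjusted p 0.00494 by limma. Mmrn2, an endothelial matrix protein, rose by 0.54 on the log2 scale, Esam, a junction adhesion molecule, by 0.47, and Eng, the TGF-beta co-receptor endoglin, by 0.56. Under TMM 8 of the 24 passed, with a median of 0.33, beside 3.35% of all genes called higher. Without the libraries that held muscle transcripts 16 passed, beside 12.0% of all genes called higher.

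Endothelial transcription factors stood alike: 5 of 14 passed higher and 0 lower, beside 5.72% and 1.72% of all genes, and all 14 log2 differences were above 0, as were 70.3% of those of all genes. Klf4, a zinc finger factor that endothelium turns on under flow, rose to 39.9 ± 4.39 TPM in weekly libraries, against 20.7 ± 1.52 TPM in vehicle libraries (SD, n = 3 each), adjusted p 0.00306 by limma. Klf2, its close relative, rose to 50.005 ± 2.68 TPM in weekly libraries, against 30.9 ± 0.825 TPM in vehicle libraries, adjusted p 0.0146 by limma. Mef2c, a MADS box factor, rose by 0.71 and Fli1, an ETS factor, by 0.50 on the log2 scale, the last with an adjusted p of 0.0527 by limma under TMM, where 3 passed. Without the libraries that held muscle transcripts 8 of the 14 passed, beside 12.0% of all genes called higher. With library 3 of every group left out, 0 genes passed in each endothelial list described here.

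Ligands and partners of the same pathways are also read against 5.72% of all genes called higher. Of 8 VEGF ligands and co-receptors 1 passed, Flt4, the VEGF-C receptor of lymphatic vessels, at 3.86 ± 0.718 TPM in weekly and 2.02 ± 0.410 TPM in vehicle libraries (SD, n = 3 each). None of 3 angiopoietin ligands tested and none of 9 junction partners tested passed. Of 10 genes of BMP9 and ALK1 signalling 1 passed, Id1, a target of that receptor, which rose by 0.72 on the log2 scale with an adjusted p of 0.0456 by limma, and of 0.0769 under TMM.

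Genes of vessel segments are read against the same 5.72% of all genes called higher and 1.72% lower. Among 11 arterial and Notch genes tested, 2 passed higher, the receptor Notch4 (log2 difference 0.66) and the connexin Gja5 (0.61). The venous factor Nr2f2 passed higher as 1 of 7 tested, at 0.63, and Esm1, a tip cell proteoglycan, as 1 of 7, at 2.04 TPM in weekly and 0.741 TPM in vehicle libraries. Gja5, Nr2f2 and Esm1 did not pass under TMM. Among 8 capillary genes 1 passed, and it fell: Rgcc, a complement-response regulator made by fat capillaries, at 457 ± 19.6 TPM in weekly libraries and 539 ± 13.2 TPM in vehicle libraries (SD, n = 3 each). Of 3 lymphatic markers tested 2 passed higher, with Lyve1, the hyaluronan receptor, at 19.7 ± 2.97 TPM in weekly and 7.79 ± 0.960 TPM in vehicle libraries, adjusted p 0.00306 by limma, a gene that some macrophages also express.

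**Figure D4:**
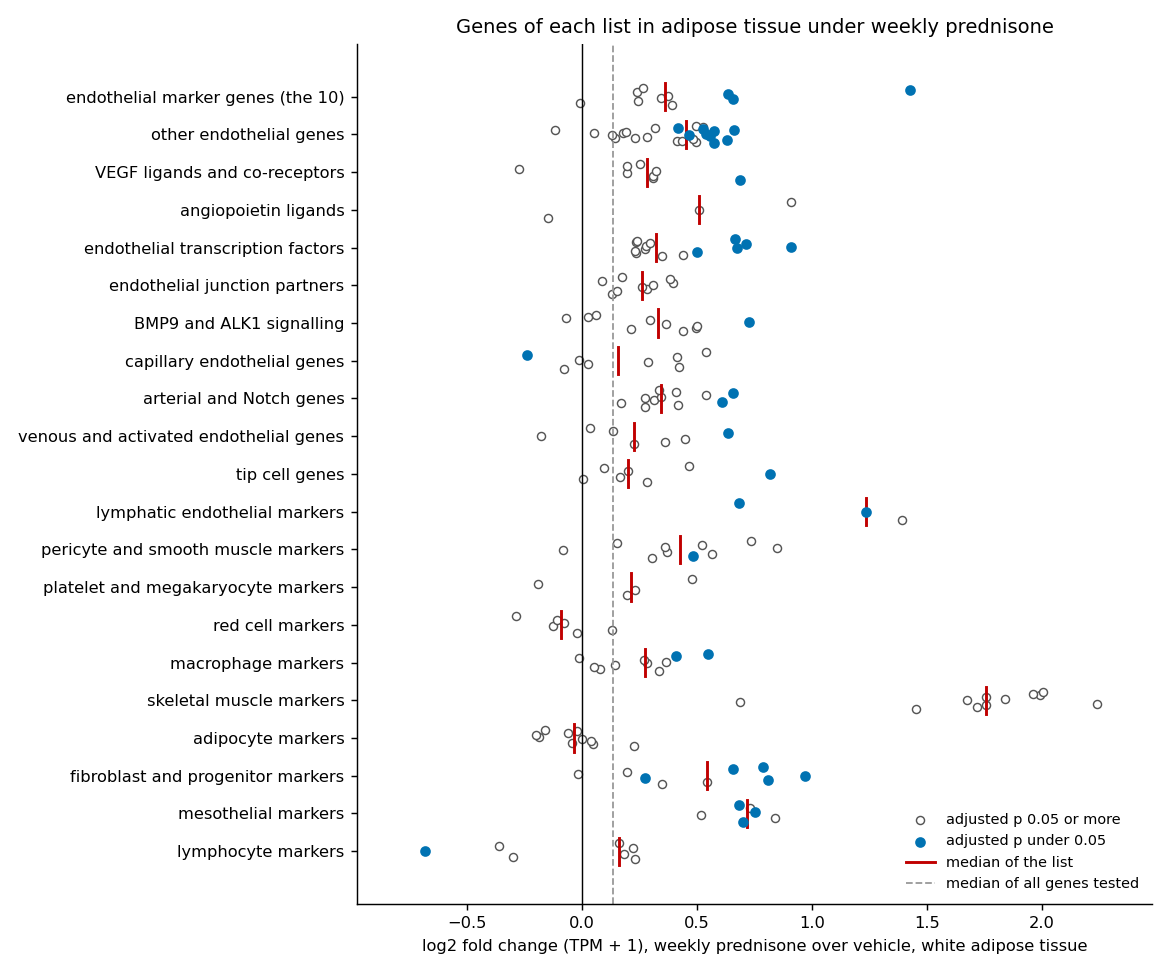
Log2 difference of each tested gene of each list in adipose tissue, weekly prednisone over vehicle, with filled points at an adjusted p under 0.05, a red bar at the list's median and a dashed line at the median of all genes tested, 0.13. The 10 endothelial marker genes had a median of 0.36, skeletal muscle markers 1.76 with 0 called, and adipocyte markers -0.03.

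Markers of other cells in the same libraries are read against 5.72% of all genes called higher and 1.72% lower. Fibroblast and progenitor markers summed to 2202 to 2784 TPM in weekly libraries and 1850 to 1914 TPM in vehicle libraries, and 5 of 9 passed higher, among them Col3a1, a fibrillar collagen, by 0.81 on the log2 scale. Pericyte and smooth muscle markers summed to 428 to 582 TPM in weekly libraries and 344 to 373 TPM in vehicle libraries, with 1 of 10 called, Acta2. Mesothelial markers, of the cells that cover visceral fat, summed to 78.1 to 136 TPM in weekly and 50.4 to 78.8 TPM in vehicle libraries, with 3 of 6 called higher. Macrophage markers gave 2 of 10, Lyz2 and Mrc1, while 0 of 10 adipocyte, 0 of 6 red cell and 0 of 4 platelet markers tested passed. Of 7 lymphocyte markers 1 passed lower, Cd3g. Without the libraries that held muscle transcripts, 7 of 9 fibroblast, 8 of 10 pericyte and smooth muscle and 0 of 6 mesothelial markers passed, beside 12.0% of all genes called higher. The part of any of these in the endothelial values was not tested.

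The summed TPM of the 10 genes was 425, 480 and 541 (lowest, median and highest) in weekly adipose libraries, 335, 384 and 404 in daily and 371, 397 and 397 in vehicle libraries. The 24 further endothelial genes summed to 930, 1035 and 1193 TPM in weekly, 787, 858 and 873 TPM in daily and 819, 823 and 833 TPM in vehicle libraries. Weekly libraries were thus wholly above the others in both sums. The 8 capillary genes summed to 966, 977 and 1003 TPM in weekly, 895, 898 and 941 TPM in daily and 1026, 1030 and 1048 TPM in vehicle libraries. For them weekly libraries lay wholly below vehicle libraries. The 8 venous and activated genes overlapped, at 559, 610 and 645 TPM in weekly and 618, 658 and 693 TPM in vehicle libraries. Within weekly libraries, library 1 was highest for 9 of the 10 genes, library 2 lowest for 9 and library 3 in the middle for 9. Library 3 was in the middle for 54.8% of all genes averaging 10 TPM or more. For library 1 highest and library 2 lowest the share over all genes was not computed.

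Across the 9 adipose libraries most of the 10 genes shared a pattern. On the log2(TPM + 1) scale, Pearson r of a gene with the mean of the other 9 was 0.98 for Flt1, 0.97 for Tek, 0.95 for Cdh5, 0.92 for Pecam1 and Kdr, 0.86 for Tie1 and Emcn and 0.80 for Tmem100. Cldn5 and Vwf stood apart at 0.33 each. Among the genes whose levels followed the mean of the 10 most closely, of 10418 averaging 5 TPM or more, were Irf2bpl (r = 0.99), Notch2 (0.99), Cyp2d22 (0.99) and Ntn1 (0.98). These are descriptions over 9 libraries that share a regimen in threes and the amount of muscle transcripts, and they carry no test. In muscle the same r ran from -0.29 for Emcn to 0.79 for Tek, and the closest 5 of 7652 genes were Gabarapl1 (0.95), Sdhaf4 (0.93), Nup85 (0.93), Khdrbs3 (0.91) and Cpq (0.91).

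In quadriceps muscle no gene of the 10 passed under either regimen. With daily prednisone limma called 0 of the 10, where 13.7% of 12246 genes were called, 1.91% higher and 11.8% lower, and 3676 genes had an unadjusted p under 0.05. Pecam1 had 21.97, 20.06 and 21.65 TPM in daily libraries, against 23.2, 24.7 and 24.2 TPM in vehicle libraries, a log2 difference of -0.17 ± 0.06 (SE) with an adjusted p of 0.0729 by limma. Cdh5 had 23.4, 20.5 and 21.2 TPM in daily libraries and 24.8, 26.7 and 23.8 TPM in vehicle libraries, at -0.20 ± 0.07 (SE) and an adjusted p of 0.0796 by limma. Tie1 had 9.04, 8.55 and 7.61 TPM in daily libraries and 10.3, 10.7 and 9.24 TPM in vehicle libraries, at -0.24 ± 0.08 (SE) and an adjusted p of 0.0757 by limma. These 3 lay wholly below vehicle, beside 27.8% of all genes, and none wholly above, beside 6.02%.

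The other 7 overlapped between daily and vehicle muscle, with log2 differences from -0.14 for Tek to 0.16 for Emcn. The median over the 10 was -0.11 and that over all genes -0.09. Under TMM these became -0.01 and 0.00, the split of calls went to 384 higher and 412 lower, against 234 higher and 1440 lower, and Kdr, Vwf and Tmem100 changed sign. Cdh5 passed in 1 setting, without daily library 1, at -0.26 with an adjusted p of 0.0389 by limma.

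The same muscle held other calls in the lists, read against 11.8% of all genes called lower and 1.91% higher. Vegfb, a ligand of VEGFR1, fell to 127 ± 3.63 TPM in daily libraries, against 167 ± 11.5 TPM in vehicle libraries (SD, n = 3 each), adjusted p 0.00421 by limma, as 1 of 8 VEGF genes. Of 10 genes of BMP9 and ALK1 signalling 3 passed lower, the target Id3 at -0.37 and the inhibitory Smads Smad6 at -0.50 and Smad7 at -0.43 on the log2 scale, none of them under TMM. None of the 24 further endothelial genes passed, with a median of -0.10. Macrophage markers summed to 393 to 603 TPM in daily and 242 to 354 TPM in vehicle muscle, with 3 of 10 called higher, and adipocyte markers to 263 to 680 TPM in daily and 534 to 715 TPM in vehicle muscle, with 0 of 9 called. Their part in the endothelial values was not tested.

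Weekly prednisone called 0 of the 10 in muscle by limma, where 0.049% of genes were called, 0.0327% higher and 0.0163% lower, 6 genes in all, and 1891 had an unadjusted p under 0.05. All 10 groups overlapped, beside 3.75% of genes wholly above and 19.3% wholly below. Log2 differences ran from -0.10 for Tie1 to 0.16 for Tek. Tmem100 had 15.9, 21.6 and 20.2 TPM in weekly muscle libraries and 17.8, 16.8 and 17.1 TPM in vehicle libraries, a log2 difference of 0.14 ± 0.10 (SE) with an adjusted p of 0.543 by limma. Flt1 had 10.2, 9.65 and 9.41 TPM in weekly libraries and 9.16, 9.98 and 8.93 TPM in vehicle libraries, at 0.05 ± 0.07 (SE).

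Set against daily prednisone, weekly prednisone called 0 of the 10 in muscle by limma, where 1.77% of genes were called, 0.915% higher and 0.857% lower, and 2130 had an unadjusted p under 0.05. Pecam1, Flt1 and Tie1 lay wholly above, beside 14.7% of all genes, and none wholly below, beside 8.58%. Tek had the largest log2 difference of the 10, 0.30 ± 0.11 (SE), with 8.25, 9.27 and 7.74 TPM in weekly libraries and 7.88, 6.14 and 6.03 TPM in daily libraries, which overlapped, and an adjusted p of 0.192 by limma. Of the 24 further endothelial genes 2 passed higher, Podxl, an endothelial sialomucin, at 10.8 ± 0.490 TPM in weekly and 7.73 ± 0.452 TPM in daily libraries, and Eng, at 25.6 ± 0.861 TPM in weekly and 20.7 ± 0.943 TPM in daily libraries (SD, n = 3 each).

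A direct test asked whether the regimens acted differently in the tissues, on each mouse's muscle minus adipose difference. For the weekly effect 2 of the 10 passed, both lower in muscle, beside 2.72% of 11737 genes called lower, 0.0596% higher and 2.78% in all. Tmem100 differed by -1.29 ± 0.19 (SE), adjusted p 0.0292 by limma, and Flt1 by -0.60 ± 0.12 (SE), adjusted p 0.0407. Both calls were fragile: Tmem100 passed in 7 and Flt1 in 4 of 17 other settings, and under TMM, which moved the median of all genes to -0.02, against -0.19, they stood at -1.06 (adjusted p 0.0952 by limma) and -0.40 (0.134). Cdh5 (-0.46, adjusted p 0.0901 by limma), Pecam1 (-0.40, 0.0975), Kdr (-0.41, 0.115) and Tek (-0.47, 0.124) did not pass. For the daily effect limma called 0 of the 10, where 0.0511% of genes were called, 0.0341% higher and 0.017% lower, and 1618 had an unadjusted p under 0.05, with Tmem100 at -0.53 and an adjusted p of 0.272.

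In vehicle mice the tissues differed in the order of the genes. In muscle, Cdh5 (25.1 ± 1.45 TPM) and Pecam1 (24.0 ± 0.749 TPM) led with overlapping ranges, followed by Tmem100 (17.3 ± 0.531 TPM) and Cldn5 (16.3 ± 1.40 TPM), which also overlapped, and then Kdr at 11.7 ± 0.430 TPM. Tie1 (10.1 TPM), Emcn (9.79 TPM) and Flt1 (9.36 TPM) overlapped in turn, as did Tek (7.41 TPM) and Vwf (7.33 TPM) at the end (SD, n = 3 each). In adipose tissue Cldn5 led at 127 ± 8.11 TPM, with Pecam1 (75.4 ± 1.16 TPM) and Cdh5 (70.8 ± 4.13 TPM) next and overlapping. Tie1 (24.6 TPM), Kdr (24.0 TPM) and Emcn (23.2 TPM) formed the middle, each overlapping the next, then came Tek (13.3 TPM), Vwf (11.4 TPM) with Flt1 (11.2 TPM), and Tmem100 last at 7.21 ± 0.426 TPM. Under weekly prednisone Tmem100 was eighth of the 10 in adipose tissue, its range overlapping those of Tek and Flt1, and Vwf was last.

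Tested within vehicle mice, all 10 genes differed between the tissues, 9 lower and 1 higher in muscle, beside 73.9% of genes called lower, 13.1% called higher and 87% in all. Tmem100 was the one higher in muscle, with 17.8, 16.8 and 17.1 TPM there, against 7.69, 7.05 and 6.88 TPM in adipose tissue, a log2 difference of 1.15 ± 0.13 (SE), adjusted p 1.85e-05 by limma. Cldn5 lay farthest the other way, with 15.7, 17.9 and 15.3 TPM in muscle, against 118, 133 and 131 TPM in adipose tissue, at -2.89 ± 0.09 (SE), adjusted p 6.12e-09. Pecam1 differed by -1.61 ± 0.09 (SE), Cdh5 by -1.46 ± 0.10, Tie1 by -1.21 ± 0.10, Emcn by -1.17 ± 0.10, Kdr by -0.98 ± 0.10 and Tek by -0.76 ± 0.12. Vwf (-0.60, adjusted p 0.0173 by limma) and Flt1 (-0.24, adjusted p 0.0244 by limma) differed least.

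In muscle libraries the 12 skeletal muscle markers alone held 125281 to 146085 TPM, and the median log2 difference of all genes was -0.88. Relative to that, Flt1 and Tmem100 were high in muscle, Kdr was near the middle and Cldn5 was low. TMM moved the median of all genes to 0.01. Under it Tmem100 stood at 2.09 and Flt1, with its sign turned, at 0.70 (adjusted p 1.38e-05 by limma), while Cldn5 stood at -1.89, Pecam1 at -0.61, Cdh5 at -0.46, Tie1 at -0.24 and Emcn at -0.21, 7 calls in all. Tek (0.17), Vwf (0.32) and Kdr (-0.00) did not pass, the first 2 with their signs turned. Flt1 as deposited was also lost without vehicle mouse 2 (adjusted p 0.0513 by limma) or 3 (0.131), and Vwf without vehicle mouse 1 (0.0501) or 3 (0.11).

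**Figure D5:**
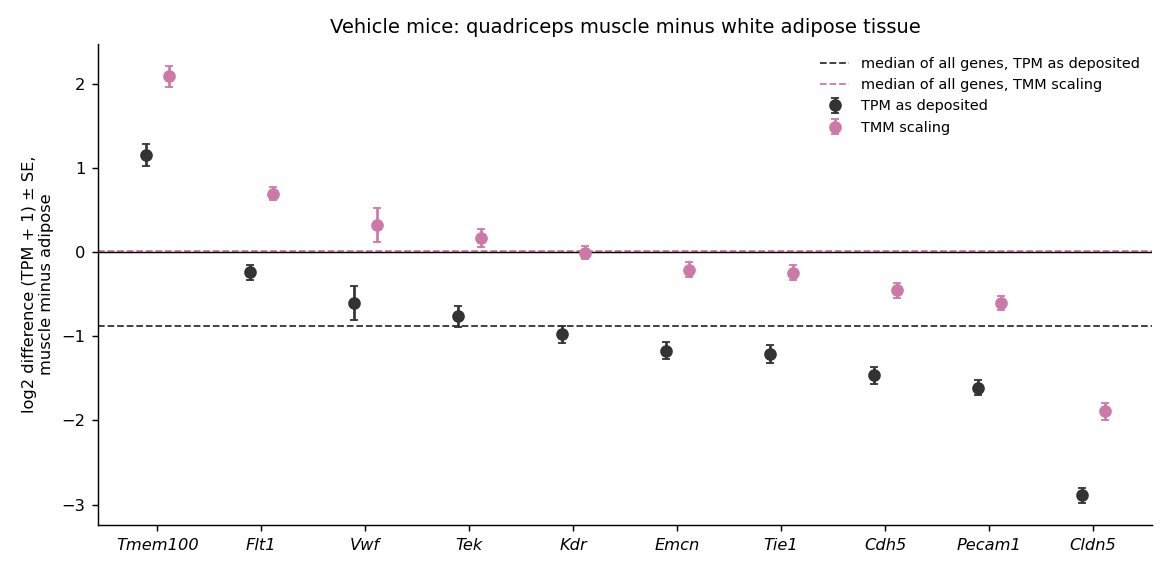
Log2 difference of each gene, muscle minus adipose tissue, in vehicle mice with its standard error, from TPM as deposited (black) and after TMM scaling (pink), with dashed lines at the median of all genes, -0.88 and 0.01. Tmem100 lay above both lines at 1.15 and 2.09, Cldn5 below both at -2.89 and -1.89, and Flt1 at -0.24 as deposited and 0.70 under TMM.

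Ratios to Cdh5 within a library do not depend on scaling, but they move with Cdh5 itself. Its log2 difference was -1.46, beside a median of -0.88 over all genes. Tmem100 to Cdh5 was 0.690 ± 0.051 in muscle and 0.102 ± 0.012 in adipose tissue of vehicle mice, and Flt1 to Cdh5 was 0.373 ± 0.004 in muscle, against 0.159 ± 0.006 in adipose tissue (SD, n = 3 each). Cldn5 to Cdh5 was 0.648 ± 0.020 in muscle and 1.80 ± 0.09 in adipose tissue. Pecam1 to Cdh5 differed far less, at 0.958 ± 0.050 in muscle and 1.07 ± 0.07 in adipose tissue. In muscle the ratios of Kdr (0.467 against 0.339), Tek (0.295 against 0.188), Vwf (0.290 against 0.161) and Tie1 (0.402 against 0.349) were also wholly higher. Emcn to Cdh5 overlapped, at 0.391 in muscle and 0.328 in adipose tissue. The share of all genes was not computed for this contrast.

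Ligands of these receptors are read against the 87% of all genes called between the tissues, 73.9% lower and 13.1% higher in muscle. Named here are 4 of them, and not every ligand tested. Angpt1, the TIE2 agonist made by mural cells, was higher in muscle by 1.76 on the log2 scale, and Angpt2, which endothelium releases against it, was lower at -1.13. Vegfa, the ligand of VEGFR1 and VEGFR2, was higher in muscle by 0.42, and Vegfd, a ligand of the lymphatic receptor, lower at -2.24. These 4 kept their direction under TMM, at 2.53 for Angpt1, -0.47 for Angpt2, 1.45 for Vegfa and -1.36 for Vegfd. Of the 24 further endothelial genes 23 were lower in muscle as deposited, with a median of -1.38, beside 73.9% of all genes called lower. Under TMM 15 were lower and 2 higher, with a median of -0.42, beside 38.1% of all genes called lower and 38.8% higher.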

How the data were processed

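RNA-seq of quadriceps muscle and white adipose tissue was measured in 9 mice, from stranded mRNA libraries per the labels' protocols. The authors deposited 1 table of TPM for 105129 transcripts in 18 libraries. The submitters' processing notes name Trimmomatic, HISAT2, kallisto and mm10, without role, order or version, and replicates were not pooled in the table as deposited. Depth is unknown, because TPM keeps none, so no counting intervals are given.

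Transcript TPM was summed per symbol (Python 3.11.15, pandas 2.3.3, numpy 2.4.6; plots with matplotlib 3.10.9) and tested as log2(TPM + 1), a scale that understates changes of low genes, with limma 3.58.1 in R 4.3.3. Genes at 1 TPM or more in 3 libraries of the tissue entered, p-values were adjusted by Benjamini-Hochberg over all of them, and an adjusted p under 0.05 was a call. All 3 regimens of a tissue shared a fit with 6 residual degrees of freedom. Tissue comparisons used each mouse's muscle minus adipose difference. All 10 members passed the filter in both tissues. On simulated data with 200 genes changed by 1 on the log2 scale, limma found 89% of them in adipose tissue under weekly prednisone, 91.5% under daily, 97% and 95.5% in muscle, and 55% and 58% of tissue differences of the weekly and daily effect. Noise was normal and independent, and within a tissue the changed genes came from those of higher level. Among treatment differences of the 10 genes within a tissue, only Tmem100 for weekly over vehicle in adipose tissue exceeded that size. Smaller changes were not simulated, so these shares do not apply to the genes not called.

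The members and lists were chosen with earlier results of these data known. Named were all 10 members, up to 4 called genes of each other list with the smallest p per comparison, and in each tissue the 5 genes (averaging 5 TPM or more, leaving out Gm and Rik names) with the highest Pearson r with the members' mean. Of the genes this rule gives, 1 is not reported here. In GENCODE M21, 94.7% of the table's transcripts had the same ID and version, and 42 of 43 member transcripts. Alternatives were TMM scaling, pseudocounts 0.1 and 5, no filter or 5 TPM, a replicate block, fits of fewer or more samples, a covariate for the other tissue's transcripts, each library left out, library 3 of every group left out, and, chosen after seeing the data, the 3 adipose libraries with over 1000 TPM of skeletal muscle markers left out. Replicate numbers did not pair the libraries: the median correlation of same-numbered residuals was 0.029 in adipose tissue and -0.030 in muscle. Between both tissues of a mouse it was also low, at 0.046, with a range from -0.10 to 0.15. Tissue comparisons were paired by mouse because the labels give the same mouse code.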

Additional observations from a re-analysis of the deposited data

Results flagged for a closer look

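The effect of weekly prednisone was called different between muscle and adipose tissue for Tmem100 and Flt1. The limma test was of the difference itself, over each mouse's muscle minus adipose value. Both calls were fragile, kept in 7 (Tmem100) and 4 (Flt1) of 17 other settings, and both were lost under TMM. Tmem100 differed by -1.29 (adjusted p 0.0292 by limma): weekly over vehicle was 0.14 in muscle and 1.43 in adipose tissue on the log2 scale. Flt1 differed by -0.60 (adjusted p 0.0407 by limma), with 0.05 in muscle and 0.65 in adipose tissue. The weekly adipose libraries 2 and 3, which held 1907 and 1426 TPM of skeletal muscle markers, were also the weekly libraries with less Tmem100 and Flt1. Daily library 2, which held 1253 TPM of them, had the most Tmem100 but the least Flt1 of the daily libraries, and a link was not tested. Without the 3 adipose libraries of that kind, Tmem100 differed by -1.78 (adjusted p 0.0435 by limma) and Flt1 by -0.74 (0.0823), with 1 weekly mouse left, whose spread was taken from the other groups.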

How the results depend on the processing

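Of 1680 values of single genes under other settings, 1560 kept direction and side of the threshold, 26 gained and 52 lost a call, and 42 changed sign, 39 of them for genes not called as reported. In adipose tissue, weekly over vehicle, 3 genes were called, against 6 with both tissues in 1 fit, 8 with the covariate, 8 without the libraries that held muscle transcripts, 0 without library 3 of every group, and 1 to 4 leaving out single libraries. Weekly over daily, 1 was called, against 4 with both tissues in 1 fit, 8 with the covariate, 0 with no filter, with the replicate block, with only the groups compared, without library 3 and without the libraries that held muscle transcripts, and 0 to 1 leaving out single libraries. For the tissue difference of the weekly effect, 2 were called, against 0 with TMM, no filter, the block or without library 3, 1 with pseudocount 0.1 or without the libraries that held muscle transcripts, and 0 to 2 leaving out single mice. Daily over vehicle in muscle ran from 0 to 1. Fewer samples or more residual spread enter some of these by construction, and otherwise the cause was not tested.

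With the replicate block, whose numbers did not pair the libraries, 3 genes of the 10 were still called for weekly over vehicle in adipose tissue, the calls over all genes became 806, against 1052, and in weekly over daily 12, against 44. In muscle daily over vehicle gave 1386, against 1674, weekly over vehicle 0, against 6, and weekly over daily 100, against 217. The tissue difference of the weekly effect gave 0, against 326. The calls lost were Tmem100 for weekly over daily in adipose tissue (adjusted p 0.0573 by limma), and Tmem100 (0.0546) and Flt1 (0.0652) for the tissue difference of the weekly effect. No other call of the 10 changed with the block.

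Sign changes under TMM in muscle were Kdr 0.0041, Vwf 0.024 and Tmem100 0.041 for daily over vehicle, and Pecam1 0.051, Cdh5 0.0057 and Kdr 0.0083 for weekly over vehicle. TMM also turned Vwf to -0.11 for weekly over daily in adipose tissue, Flt1 to 0.70, Tek to 0.17 and Vwf to 0.32 for muscle minus adipose, and Emcn to 0.064 for the tissue difference of the weekly effect. With the covariate, Vwf stood at 0.016 and Cldn5 at -0.012 for weekly over daily in muscle, Pecam1 at 0.057 and Cdh5 at 0.077 for daily over vehicle in adipose tissue, and Cldn5 at 0.041 for weekly over vehicle there. Without library 3 of every group Vwf stood at 0.042 in muscle and -0.28 in adipose tissue for weekly over daily. Without the libraries that held muscle transcripts Pecam1 stood at 0.094 and Cdh5 at 0.097 for daily over vehicle in adipose tissue, and Kdr at -0.069 for the tissue difference of the daily effect.

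Leaving out single libraries, Vwf ran from -0.26 to 0.10 (daily over vehicle), -0.28 to 0.082 (weekly over vehicle) and -0.11 to 0.061 (weekly over daily) in muscle, and from -0.19 to 0.20 for weekly over daily in adipose tissue. Cldn5 ran from -0.083 to 0.18 (daily over vehicle) and -0.060 to 0.20 (weekly over daily) in muscle, and from -0.065 to 0.020 for weekly over vehicle in adipose tissue. For daily over vehicle there, Pecam1 ran from -0.11 to 0.094 and Cdh5 from -0.071 to 0.097, and Kdr from -0.069 to 0.12 for the tissue difference of the daily effect.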
